A study of Mus musculus with 3 samples.

Results

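Apelin, adrenomedullin, their receptors and a pair of endothelial sprouting and permeability genes were followed through the interstitial cells of the mouse heart. The 7 genes were Apln, Adm, Aplnr, Ramp2, Calcrl, Esm1 and Plvap, taken by name from the 17126 genes of the deposited tables, and all 7 were present in every table. The cells came from minced, collagenase-digested hearts from which cardiomyocytes had been removed at low speed, and were sorted by flow cytometry on surface Lin28, an RNA-binding protein, and surface cKit, a receptor tyrosine kinase. Each sort gave 1 droplet-based single-cell library of polyadenylated RNA read at its 3′ end. The libraries were Lin28+/cKit+ with 1176 cells, Lin28+/cKit- with 681 cells and Lin28-/cKit- with 3976 cells. The sources used here do not give strain, age, sex or number of animals, nor whether the 3 sorts shared animals. Each group is a single library without replicates, so no test was made between groups and a difference between libraries cannot be told apart from a difference between sorts, animals or preparations.

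Apelin, the product of Apln, signals through the G protein-coupled receptor encoded by Aplnr, and in growing vessels the ligand marks sprouting tip cells while the receptor is found on capillary and venous endothelium. Adrenomedullin, the product of Adm, is a vasodilator peptide induced by low oxygen that binds the receptor encoded by Calcrl, and the accessory protein encoded by Ramp2 gives that receptor its preference for adrenomedullin. Esm1 encodes endocan, a secreted proteoglycan of tip cells, and Plvap encodes the protein that forms the diaphragms of endothelial fenestrae and caveolae.

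On mm10 the genes lie, per the GENCODE annotation, at chromosome X 48025146 to 48034853 (Apln, minus strand), chromosome 7 110627661 to 110629820 (Adm, plus strand) and chromosome 2 85136225 to 85139923 (Aplnr, plus strand). Ramp2 lies on chromosome 11 from 101246028 to 101259546 (plus strand), Calcrl on chromosome 2 from 84330626 to 84425411 (minus strand), Esm1 on chromosome 13 from 113209659 to 113218098 (plus strand, inside Gzmk of the opposite strand) and Plvap on chromosome 8 from 71497765 to 71511752 (minus strand). All 7 are protein coding. Ramp2 overlaps Vps25 on the same strand over 5840 bases, Plvap overlaps Gtpbp3 on the opposite strand over 1819 bases, and an antisense gene, Gm28863, overlaps Adm over 2160 bases. The sources used here do not give the strand setting of the counting, so reads from these overlaps cannot be assigned here.

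Because Apln, Adm and Esm1 are known as genes of hypoxic or sprouting endothelium, their promoters are shown, with the 5-base core of the hypoxia response element (ACGTG or GCGTG on either strand) in capitals. The sequences are the 250 bases upstream of the gene start in RefSeq (GRCm38.p6), read 5′ to 3′ on the gene's strand, at chrX:48034854-48035103 for Apln, chr7:110627407-110627656 for Adm and chr13:113209409-113209658 for Esm1.
Apln: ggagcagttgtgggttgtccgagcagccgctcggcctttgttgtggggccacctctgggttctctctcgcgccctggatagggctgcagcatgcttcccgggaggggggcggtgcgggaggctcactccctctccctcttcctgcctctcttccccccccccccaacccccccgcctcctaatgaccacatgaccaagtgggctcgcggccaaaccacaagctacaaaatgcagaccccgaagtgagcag
Adm: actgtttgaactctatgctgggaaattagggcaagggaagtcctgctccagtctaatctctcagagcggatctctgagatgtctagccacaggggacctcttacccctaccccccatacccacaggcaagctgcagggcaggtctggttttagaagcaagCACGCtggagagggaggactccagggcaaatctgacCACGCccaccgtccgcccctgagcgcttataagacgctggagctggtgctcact
Esm1: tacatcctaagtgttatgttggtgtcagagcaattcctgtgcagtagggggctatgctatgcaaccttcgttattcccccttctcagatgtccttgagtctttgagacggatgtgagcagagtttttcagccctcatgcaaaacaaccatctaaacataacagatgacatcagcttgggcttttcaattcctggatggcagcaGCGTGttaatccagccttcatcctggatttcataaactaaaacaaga
The Adm window held 2 cores, 90 and 54 bases upstream of the start, both GCGTG read on the opposite strand. The Esm1 window held 1 core, GCGTG at 47 bases upstream, and the Apln window held 0. A core of either spelling was found in 38.8% of 32536 RefSeq windows of the same length, so holding a core is common. The match is a description of letters and not a binding site.

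The libraries held 10400648, 7401174 and 34031955 UMIs (unique molecular identifiers, the tags that count captured transcripts) in the Lin28+/cKit+, Lin28+/cKit- and Lin28-/cKit- sorts. Endothelial-like cells, named from markers that include none of the 7 genes, were 429, 243 and 923 cells, or 36.5%, 35.7% and 23.2% of the same libraries. Their summed level of 12 endothelial markers was 8682, 8642 and 8664 CPM (counts per 1e6 UMIs). Macrophage-like cells, 659, 334 and 25 in number, made up most of the other cells of both Lin28+ sorts, and fibroblast-like cells, 12, 34 and 2767 in number, most of the Lin28-/cKit- sort. The endothelial-like cells divided into capillary-like, arterial-like, endocardial-like (the lining of the heart chambers) and a type led by Lrg1 and Col13a1. Capillary-like cells were 59.2%, 63.0% and 43.6% of the endothelial-like cells, arterial-like cells 24.5%, 12.3% and 31.2%, Lrg1 Col13a1-type cells 8.86%, 20.2% and 13.8%, and endocardial-like cells 7.46%, 4.53% and 11.5%. Between libraries, 8 barcodes were shared by the Lin28+/cKit+ and Lin28-/cKit- sorts and 1 by both Lin28+ sorts. Levels are given in CPM with exact Poisson 95% intervals, and a ratio is called higher or lower when it is at least 1.5-fold with an exact 95% interval that excludes 1. The intervals cover counting error only. CPM from 3′ ends does not scale with transcript length, so levels of different genes are set side by side on that scale.

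Apln transcripts lay mainly in capillary-like cells in all 3 libraries, at nearly the same level. Lin28+/cKit+ capillary-like cells had 67 UMIs or 44.0 CPM (34.1–55.9), Lin28+/cKit- cells 55 UMIs or 43.8 CPM (33.0–57.0) and Lin28-/cKit- cells 67 UMIs or 41.6 CPM (32.2–52.8). The 3 intervals overlapped almost wholly. Few capillary-like cells carried the transcript, with an Apln UMI in 12.2% of Lin28+/cKit+, 13.7% of Lin28+/cKit- and 9.20% of Lin28-/cKit- cells at median depths of 5214.5, 7642 and 3824 UMIs. After thinning of each cell to 1000 UMIs the shares were 2.81%, 1.97% and 2.75%, against 0.145% before and 0 after thinning in Lin28-/cKit- fibroblast-like cells, whose median depth was 10125 UMIs. Relative to the other endothelial-like cells of the library, the capillary-like level was 25.3-fold (6.75–214), 7.92-fold (2.92–30.1) and 7.66-fold (4.26–14.8) as high. Capillary-like cells held 97.1%, 93.2% and 82.7% of the endothelial Apln UMIs, well above their share of the cells. The Lrg1 Col13a1 type came next by value, at 3.78 CPM (0.0957–21.1), 8.75 CPM (2.38–22.4) and 19.9 CPM (10.6–34.0). The first value rests on 1 UMI and the second on 4 UMIs, too few to set its place in the Lin28+ sorts. Arterial-like cells had 1 UMI, 0 UMIs and 1 UMI, and endocardial-like cells 0 UMIs in every library, which allows up to 12.2, 45.5 and 4.30 CPM. Macrophage-like cells had 1.39 CPM (0.666–2.55) and 1.08 CPM (0.352–2.53) in the Lin28+/cKit+ and Lin28+/cKit- sorts.

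Adm, the other ligand, had sources in both endothelium and fibroblasts. In capillary-like cells it was at 72.9 CPM (59.9–87.7) in Lin28+/cKit+, 39.0 CPM (28.9–51.6) in Lin28+/cKit- and 63.3 CPM (51.6–76.9) in Lin28-/cKit- cells. The Lin28+/cKit- level stood below both others, at 0.616 (0.429–0.874) of the Lin28-/cKit- level, and the Lin28+/cKit+ level was 1.87-fold (1.32–2.67) the Lin28+/cKit- level. Both ratios were called, and the ratio of Lin28+/cKit+ to Lin28-/cKit- capillary-like cells, 1.15 (0.872–1.52), was not. Fibroblast-like cells had 86.0 CPM (39.3–163), 135 CPM (102–174) and 81.4 CPM (78.1–84.8), the first from 12 cells only and the second from 57 UMIs in 7 of 34 cells. In the Lin28-/cKit- sort fibroblast-like cells held 92.4% of all Adm UMIs, and over all cells Adm was at 15.9, 18.0 and 72.7 CPM in the 3 sorts. Arterial-like cells had 0 UMIs in both Lin28+ sorts, up to 6.30 and 19.9 CPM, and 6.57 CPM (2.64–13.5) in Lin28-/cKit- cells. The Lrg1 Col13a1 type was intermediate, at 22.7 CPM (8.32–49.4), 17.5 CPM (7.55–34.5) and 12.2 CPM (5.28–24.1). An endocardial-like level of 111 CPM (50.8–211) in the Lin28+/cKit- sort came from 9 UMIs in 1 of 11 cells, against 16.5 CPM (5.36–38.5) in Lin28+/cKit+ and 8.16 CPM (3.28–16.8) in Lin28-/cKit- cells. In macrophage-like cells Adm had 22 UMIs in the Lin28+/cKit+ sort and 2 UMIs in the Lin28+/cKit- sort, a ratio of 7.05 (1.73–61.9). It was the 1 gene of the 7 called there, where 6.31% of all measured genes were called. Apln, Esm1 and Plvap had fewer than 20 UMIs in that pair and were not measured.

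**Figure D1:**
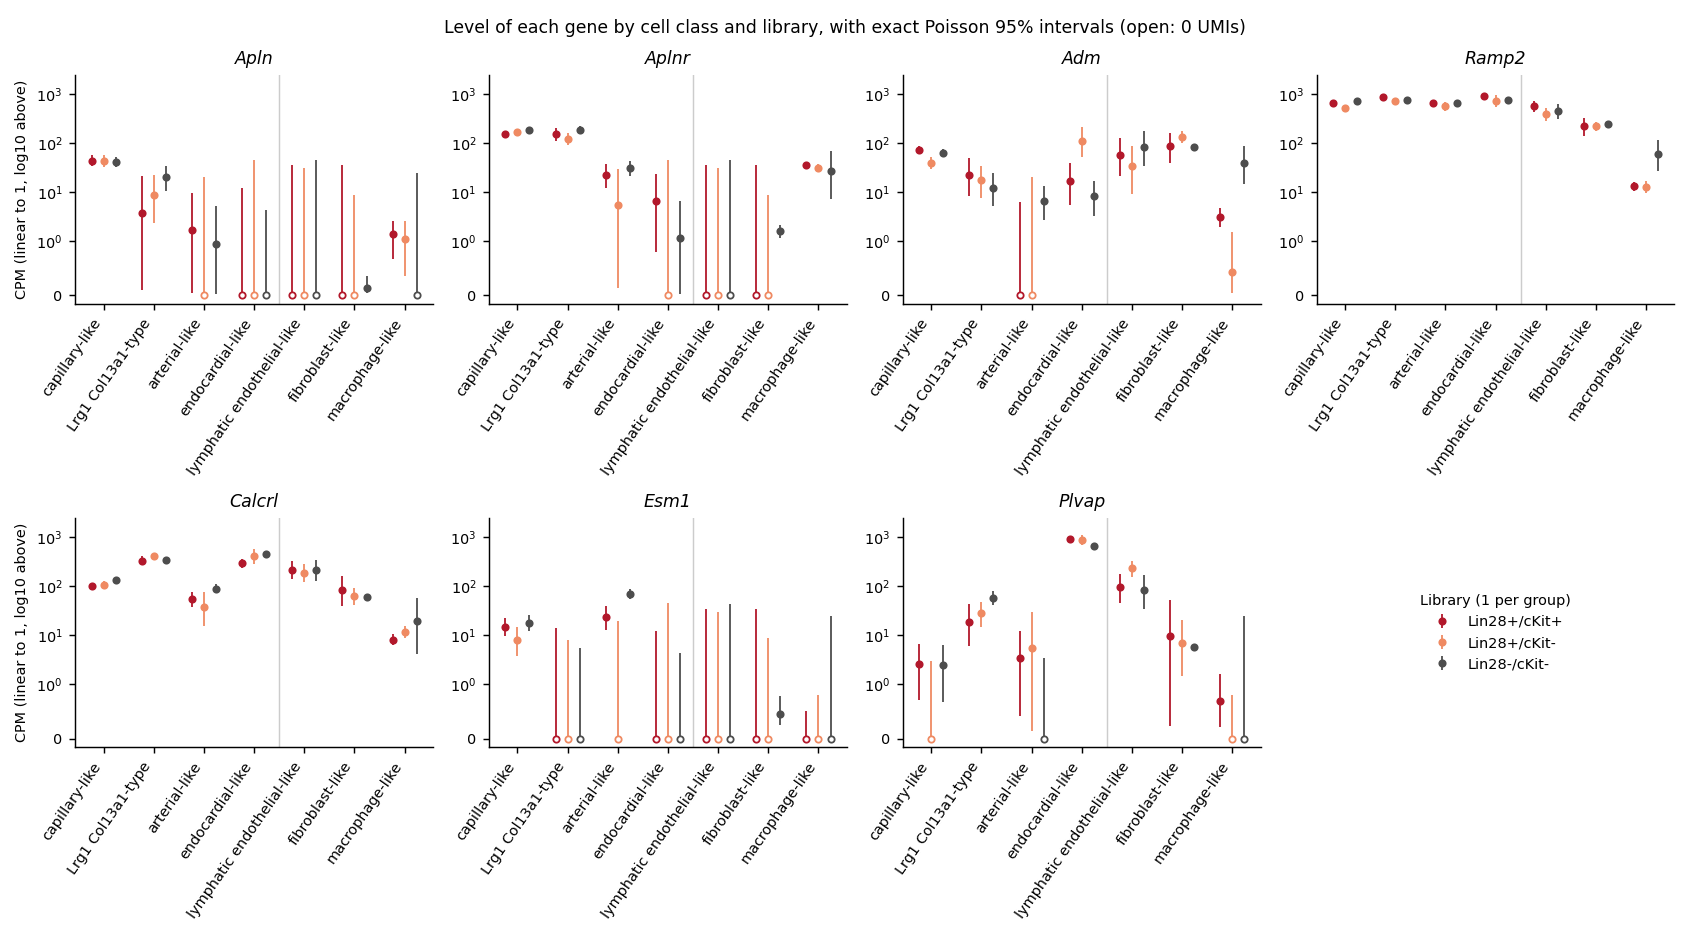
Level of each of the 7 genes in CPM (axis linear to 1 and log10 above) by cell class, with the Lin28+/cKit+, Lin28+/cKit- and Lin28-/cKit- libraries side by side, points with exact Poisson 95% intervals and open points for 0 UMIs. The 4 endothelial subtypes stand left of the grey line. Apln is at 44.0, 43.8 and 41.6 CPM in capillary-like cells, Plvap is at 654 to 915 CPM in endocardial-like cells, Esm1 has 0 UMIs in endocardial-like and Lrg1 Col13a1-type cells, and Aplnr is at 35.1, 31.0 and 26.6 CPM in macrophage-like cells.

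Aplnr, the apelin receptor, was highest in 2 of the 4 endothelial subtypes. Capillary-like cells had 152 CPM (133–172) in the Lin28+/cKit+ sort, 167 CPM (145–191) in the Lin28+/cKit- sort and 187 CPM (166–209) in the Lin28-/cKit- sort. The Lrg1 Col13a1 type had 151 CPM (108–206), 122 CPM (92.5–159) and 185 CPM (153–221). The intervals of these subtypes overlapped in each library. Arterial-like cells were far lower, at 22.2 CPM (11.8–38.0), 5.40 CPM (0.137–30.1) and 31.0 CPM (21.3–43.5), and endocardial-like cells had 2, 0 and 1 UMIs. Within capillary-like cells no pair of libraries was called. The Lrg1 Col13a1 type had a lower level in the Lin28+/cKit- than in the Lin28-/cKit- sort, at 0.662-fold (0.473–0.916), in a comparison that called 7.08% of all genes. Against the other endothelial-like cells of the same library, capillary-like cells were called higher for Apln, Aplnr and Adm in the Lin28+/cKit+ sort (3 of 7 measured genes, with 5.78% of all genes called higher) and in the Lin28-/cKit- sort (3 of 7, with 6.77%). In the Lin28+/cKit- sort 2 of 6 measured genes, Apln and Aplnr, were called higher, with 5.25% of all genes. Those background shares include the genes that defined the clusters, while the 7 genes were left out of the clustering.

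Aplnr also stood out among the 7 genes in macrophage-like cells. It was at 35.1 CPM (30.9–39.8) in the Lin28+/cKit+ sort and 31.0 CPM (26.1–36.5) in the Lin28+/cKit- sort, with a UMI in 31.0% of 659 and 28.7% of 334 cells. The 25 macrophage-like cells of the Lin28-/cKit- sort had 26.6 CPM (7.24–68.1). Lin28-/cKit- fibroblast-like cells, at a similar median depth, had an Aplnr UMI in 1.45% of cells. After thinning to 1000 UMIs the macrophage-like shares were 3.83% and 3.74%, against 0.0368% in those fibroblast-like cells, and macrophage-like cells held 46.0% and 34.6% of all Aplnr UMIs of the Lin28+/cKit+ and Lin28+/cKit- libraries. As a share of its level in endothelial-like cells of the same library, Aplnr was at 32.9% (27.7–39.1) and 23.0% (18.6–28.2). The 12 endothelial markers summed to 2.43% and 2.50% on the same scale, and singly ranged from 1.56% to 6.48% and from 1.77% to 6.77%, highest for Eng in both. The other 6 of the 7 genes lay between 0 and 6.70% in the Lin28+/cKit+ sort, so none of them came near Aplnr. Macrophage-like cells with an Aplnr UMI had 246 and 237 CPM of the summed endothelial markers, against 192 and 202 CPM in those without. At least 3 endothelial marker UMIs were found in 53 of 204 and 24 of 96 cells with an Aplnr UMI, against 76 of 455 and 27 of 238 cells without, at median depths of 10197.5 and 17186.5 against 9374 and 10807.5 UMIs, so the share of such cells and the depth were both higher in cells with an Aplnr UMI. Endothelial-like cells with an Aplnr UMI had 8461 and 8431 CPM of the same markers. In macrophage-like cells without any endothelial marker UMI, a check chosen after seeing the data, Aplnr was at 41.9 CPM in 206 Lin28+/cKit+ cells and 38.2 CPM in 142 Lin28+/cKit- cells. Both values lay above the intervals of all macrophage-like cells given above. Asking for 0 marker UMIs favours cells with fewer UMIs, and the depth of the chosen cells was not read. Over all macrophage-like cells, with the endothelial profile subtracted at the share of the markers, Aplnr was at 32.5 and 27.6 CPM. The 2 macrophage-like clusters with most of these cells both carried it, at 28.1 and 32.0 CPM in the first and 44.9 and 29.8 CPM in the second.

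**Figure D2:**
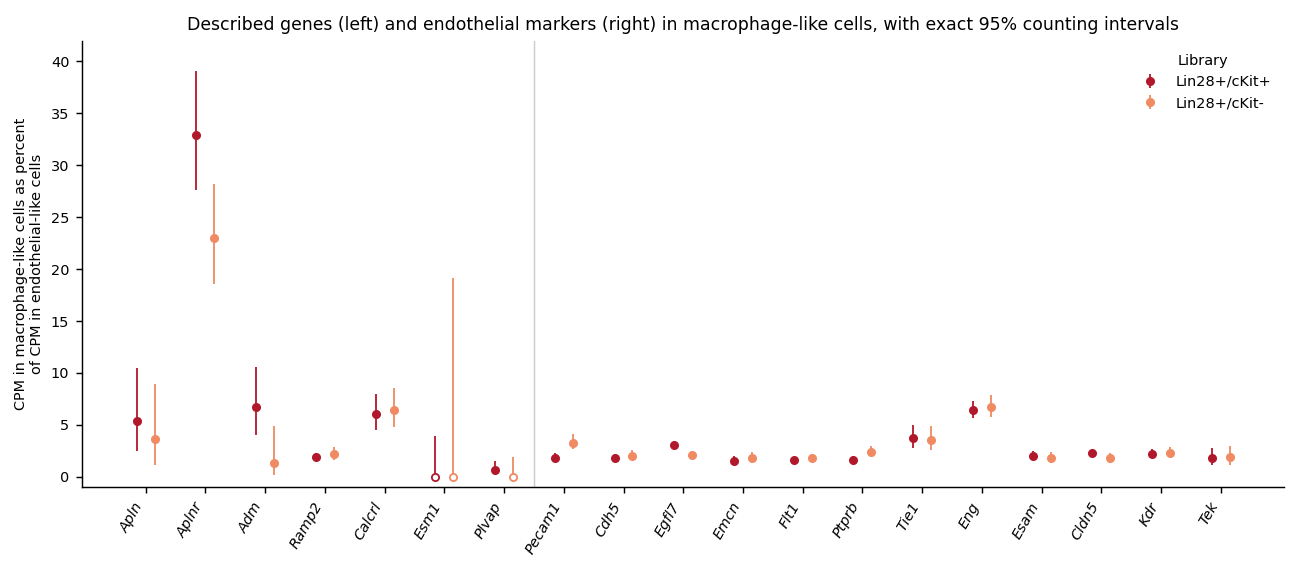
CPM in macrophage-like cells as a percent of CPM in endothelial-like cells of the same library, for the 7 genes (left of the grey line) and 12 endothelial markers (right), in the Lin28+/cKit+ and Lin28+/cKit- libraries, with exact 95% counting intervals and open points for 0 UMIs. Aplnr is at 32.9% and 23.0%, above every marker, the highest of which is Eng at 6.48% and 6.77%.

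Ramp2 and Calcrl together make the adrenomedullin receptor, and their levels were distributed differently. Ramp2 was at 705 CPM (674–738), 581 CPM (548–615) and 714 CPM (688–740) in endothelial-like cells of the Lin28+/cKit+, Lin28+/cKit- and Lin28-/cKit- sorts, and at 525 to 928 CPM in every subtype and library. It was the most even of the 7 genes, and no ratio between libraries within a subtype was called. Fibroblast-like cells carried it at 220, 220 and 246 CPM, and macrophage-like cells at 13.2 and 12.8 CPM in both Lin28+ sorts.

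Calcrl was highest in the Lrg1 Col13a1 type and in endocardial-like cells. In the Lrg1 Col13a1 type Lin28+/cKit+ cells had 336 CPM (270–414), Lin28+/cKit- cells 420 CPM (363–484) and Lin28-/cKit- cells 352 CPM (308–400). Endocardial-like cells had 294 CPM (236–362), 407 CPM (280–572) and 459 CPM (415–507). These levels overlap between the subtypes in both Lin28+ sorts and not in the Lin28-/cKit- sort, where endocardial-like cells were higher. Capillary-like cells were lower, at 99.8 CPM (84.5–117), 107 CPM (89.4–126) and 133 CPM (116–152), and arterial-like cells lowest, at 54.7 CPM (37.4–77.2), 37.8 CPM (15.2–77.9) and 90.1 CPM (73.0–110). Over all endothelial-like cells Calcrl was at 135, 185 and 223 CPM, and the Lin28+/cKit+ level was 0.607-fold (0.536–0.686) the Lin28-/cKit- level. The same direction was called within arterial-like cells, at 0.607-fold (0.394–0.914), and within endocardial-like cells, at 0.640-fold (0.503–0.807), where 6.5% and 8.78% of all genes were called. In capillary-like cells the ratio was 0.751 (0.606–0.929) and in the Lrg1 Col13a1 type 0.957 (0.740–1.23), neither of them called. Lin28+/cKit- arterial-like cells were also lower than Lin28-/cKit- ones, at 0.420-fold (0.164–0.898), on 7 UMIs, with 7.35% of all genes called. Lymphatic endothelial-like cells, for which the receptor pair is known to matter in development, had 218, 191 and 217 CPM of Calcrl from 13, 17 and 19 cells.

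Both receptor parts were detected in 39.9% of Lin28+/cKit+, 50.2% of Lin28+/cKit- and 38.6% of Lin28-/cKit- endothelial-like cells. The product of the separate shares was 39.1%, 49.0% and 37.7%, but with Ramp2 in most cells the joint share can hardly differ from it. After thinning to 1000 UMIs both were detected in 8.04%, 6.28% and 7.31% of cells, and the product was 6.99%, 5.10% and 7.62%, within the counting interval of the joint share in each library.

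Esm1 was found in arterial-like and capillary-like cells and had 0 UMIs in endocardial-like and Lrg1 Col13a1-type cells of all 3 libraries. Arterial-like cells had 23.9 CPM (13.1–40.1) in the Lin28+/cKit+ sort, 0 UMIs in 30 cells (up to 19.9 CPM) in the Lin28+/cKit- sort and 69.5 CPM (54.5–87.2) in the Lin28-/cKit- sort. The Lin28+/cKit+ arterial-like level was 0.345-fold (0.180–0.615) the Lin28-/cKit- level. Capillary-like cells had 15.1 CPM (9.57–22.7), 7.96 CPM (3.82–14.6) and 18.0 CPM (12.1–25.9), and here the ratio of the Lin28+/cKit+ to the Lin28-/cKit- sort was 0.839 (0.463–1.5). The Lin28+/cKit- capillary-like level was called lower, at 0.442-fold (0.192–0.934) the Lin28-/cKit- level, on 10 UMIs. Few cells carried the transcript, 8 of 105, 0 of 30 and 29 of 288 arterial-like cells and 10 of 254, 5 of 153 and 12 of 402 capillary-like cells. Arterial-like cells were 2.18-fold (1.04–4.41) as high as the other endothelial-like cells in the Lin28+/cKit+ sort and 7.48-fold (4.81–11.9) in the Lin28-/cKit- sort, while in the Lin28+/cKit- sort all 10 endothelial UMIs were in capillary-like cells, too few to order its subtypes. At a clustering resolution of 1.5, with 1000 variable genes, or with the 7 genes among the clustering genes, arterial-like cells were highest in that sort as well. No cell carried UMIs of both Esm1 and Plvap.

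Plvap was close to a gene of a single subtype. Endocardial-like cells had 915 CPM in the Lin28+/cKit+ sort (810–1029), 888 CPM in the Lin28+/cKit- sort (695–1119) and 654 CPM in the Lin28-/cKit- sort (601–710). A UMI was found in 28 of 32, 8 of 11 and 85 of 106 of these cells, and 1 Lin28+/cKit- cell held 29 of the 72 UMIs of that sort. Relative to the other endothelial-like cells the level was 197-fold (109–400), 120-fold (67.4–231) and 51.9-fold (37.9–72.7) as high. Endocardial-like cells held 96.2%, 83.7% and 93.0% of the endothelial Plvap UMIs. The Lrg1 Col13a1 type had 18.9 CPM (6.14–44.1), 28.4 CPM (15.1–48.6) and 58.1 CPM (41.1–79.7), and here the Lin28+/cKit+ and Lin28+/cKit- sorts were called lower than the Lin28-/cKit- sort, at 0.325-fold (0.0999–0.828) and 0.489-fold (0.239–0.939). Of all genes, 6.44% and 7.08% were called in those pairs. Capillary-like cells had 4, 0 and 4 UMIs and arterial-like cells 2, 1 and 0. Lymphatic endothelial-like cells had 95 CPM (45.6–175), 233 CPM (155–336) and 84.3 CPM (33.9–174). Within endocardial-like cells the ratio of the Lin28+/cKit+ to the Lin28-/cKit- sort was 1.40 (1.21–1.62), under the 1.5-fold line.

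Set against each other over all endothelial-like cells, the libraries differed in a minority of the 7 genes. Between the Lin28+/cKit+ and Lin28-/cKit- sorts, 1 gene was called higher (Adm, 1.54-fold, 1.19–1.99), 2 lower (Calcrl, at 0.607-fold, and Esm1, at 0.562-fold, 0.375–0.826) and 4 neither. Of all measured genes 2.41% were called higher and 6.53% lower. The median log2 ratio of the 7 genes was -0.03, beside -0.05 over all measured genes. Between the Lin28+/cKit- and Lin28-/cKit- sorts, 1 was called higher (Apln, 1.54-fold, 1.08–2.18), 2 lower (Esm1 at 0.205-fold, 0.0957–0.393, and Plvap at 0.302-fold, 0.238–0.379) and 4 neither, with 3.97% of all genes called higher and 6.95% lower. Here the median was -0.27, beside -0.04 over all genes. Between the Lin28+/cKit+ and Lin28+/cKit- sorts, 2 were called higher (Esm1, 2.74-fold, 1.33–6.17, and Plvap, 2.48-fold, 1.94–3.19) and 5 neither, with 3.4% of all genes called in each direction and a median of 0.28 beside -0.01. The comparisons share libraries, and 1 to 3 calls among 7 genes are too few to read against those background shares.

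Some of these calls changed when the subtypes were weighted equally or the cells were thinned. With each subtype given equal weight, the log2 ratio of Apln between the Lin28+/cKit- and Lin28-/cKit- sorts was -0.25 in place of 0.62, and without the cell holding the most Apln UMIs in each library (13 of 59 in the Lin28+/cKit- sort) it was 0.39. Within capillary-like cells the Apln ratio was 1.05 (0.723–1.53). The log2 ratio of Plvap in the same pair was 0.37 with equal weights in place of -1.73, beside endocardial-like shares of 4.53% in Lin28+/cKit- and 11.5% in Lin28-/cKit- endothelial-like cells. Between the Lin28+/cKit+ and Lin28+/cKit- sorts it was 0.03 with equal weights in place of 1.31, with 915 and 888 CPM in their endocardial-like cells and endocardial-like shares of 7.46% and 4.53%. The log2 ratio of Adm between the Lin28+/cKit+ and Lin28-/cKit- sorts was 0.62 over all UMIs and -0.070 after thinning to 1000 UMIs. Thinning leaves fewer UMIs and gives each cell the same weight, and the part of depth was not tested. Fibroblast markers summed to 505, 214 and 4107 CPM in endothelial-like cells of the Lin28+/cKit+, Lin28+/cKit- and Lin28-/cKit- sorts, and with the profile of the other cells subtracted the Adm value was 0.77.

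**Figure D3:**
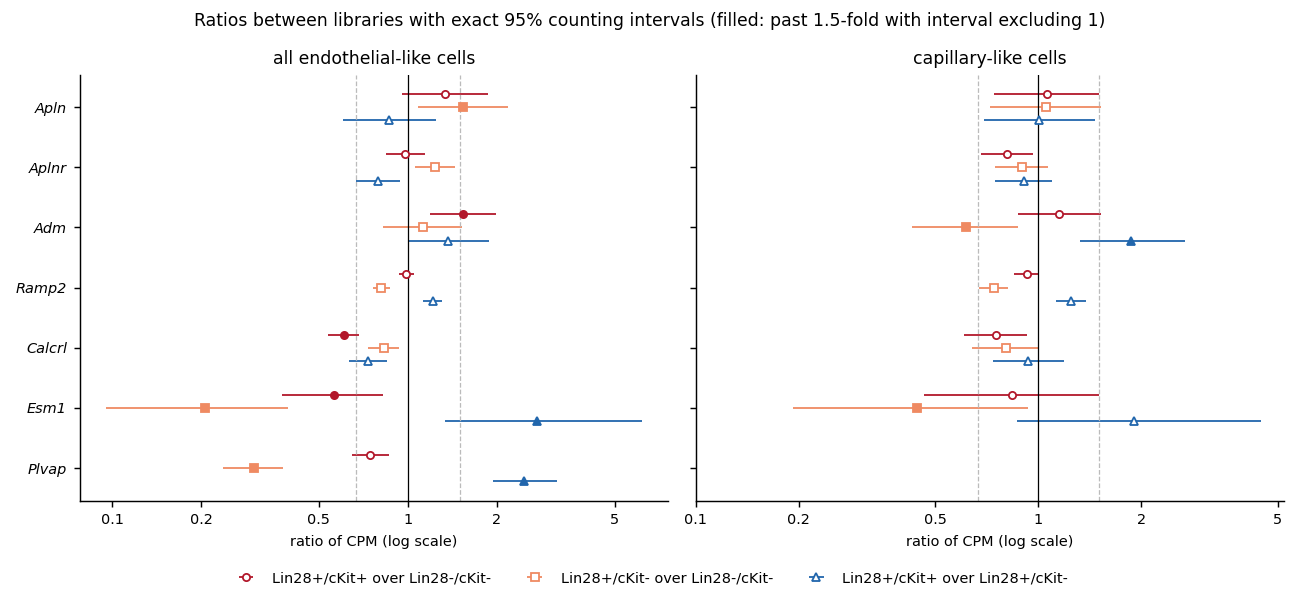
Ratio of CPM between libraries (log axis) for each gene in all endothelial-like cells (left) and in capillary-like cells (right), with exact 95% counting intervals. Dashed lines mark 1.5-fold in each direction and filled points are past it with an interval that excludes 1. In capillary-like cells the Apln ratios lie at 1.06, 1.05 and 1.00, Adm is called lower in the Lin28+/cKit- sort than in both others, and Plvap has too few UMIs to be drawn.

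In capillary-like cells alone, 0 of 6 measured genes were called between the Lin28+/cKit+ and Lin28-/cKit- sorts (5.84% of all genes), 2 of 6, both lower, between the Lin28+/cKit- and Lin28-/cKit- sorts (Adm and Esm1, with 7.55% of all genes), and 1 of 6, Adm, between the Lin28+/cKit+ and Lin28+/cKit- sorts (5.52%). In arterial-like cells 2 of 4 measured genes, Calcrl and Esm1, were called lower in the Lin28+/cKit+ than in the Lin28-/cKit- sort (6.5% of all genes called).

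Other genes of both peptide pathways were read from a list of 14, of which 11 were in the tables. Ramp3, the other accessory protein that gives Calcrl an adrenomedullin response, was at 99.8 CPM (88.2–112), 75.3 CPM (63.7–88.4) and 90.0 CPM (81.1–99.6) in endothelial-like cells and near 0 in fibroblast-like cells. Ramp1, which turns Calcrl into a receptor for calcitonin gene-related peptide, was instead in macrophage-like cells, at 42.6 CPM (38.0–47.7) in the Lin28+/cKit+ and 25.6 CPM (21.2–30.6) in the Lin28+/cKit- sort. It had 1.12, 0 and 0.716 CPM in endothelial-like cells. Ackr3, a scavenger receptor for adrenomedullin and chemokines, was at 123, 115 and 109 CPM in endothelial-like cells and higher in fibroblast-like cells, at 172, 394 and 278 CPM. Pam, the enzyme that amidates adrenomedullin, was highest among endothelial subtypes in endocardial-like cells, at 433, 555 and 276 CPM. Over all endothelial-like cells, 0 of 7 measured pathway genes were called higher and 2 lower in the Lin28+/cKit+ than in the Lin28-/cKit- sort. The Lin28+/cKit- sort likewise had 0 and 2. Of all genes 2.41% and 3.97% were called higher in those pairs, and 6.53% and 6.95% lower. In the first pair endocardial-like cells had 2 higher and 1 lower of 6 (3.68% and 5.1%). Arterial-like cells there had 2 lower of 6 (3.85%), the Lrg1 Col13a1 type 2 (3.32%) and capillary-like cells 1 (3.65%). In the second pair capillary-like and Lrg1 Col13a1-type cells each had 1 lower of 6 (4.23% and 3.15%). Over all endothelial-like cells the peptidase gene Mme was called lower in both Lin28+ sorts. It had 0, 2 and 25 UMIs in the Lin28+/cKit+, Lin28+/cKit- and Lin28-/cKit- sorts. Mme was higher in fibroblast-like cells, at 47.8, 59.0 and 87.9 CPM. In endothelial-like cells Mme was at 0, 1.01 and 5.97 CPM. Mme and the fibroblast markers given above were both highest in the Lin28-/cKit- sort. With 0 and 2 Mme UMIs, the Lin28+ sorts cannot be ordered by Mme. The part of fibroblast RNA in this call was not tested. The free RNA share was read as 4.05% in Lin28-/cKit- capillary-like cells, from fibroblast markers, and was not read in the other endothelial subtypes. The median log2 ratios of the 7 were -0.06 and -0.26, beside -0.05 and -0.04 over all genes.

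Of 24 tip cell and sprouting genes, 23 were measured over all endothelial-like cells, whose subtype shares differed between the libraries. In the Lin28+/cKit+ against the Lin28-/cKit- sort 3 were called higher, the Notch ligand Dll4 at 150 against 97.2 CPM, the chemokine receptor Cxcr4 at 17.2 against 8.36 CPM and the Tie2 ligand Angpt2 at 18.7 against 9.07 CPM. The placental growth factor gene Pgf was called lower, at 10.8 against 24.6 CPM. In the Lin28+/cKit- against the Lin28-/cKit- sort 3 were called higher, Cxcr4 (16.7 against 8.36 CPM), Angpt2 (22.7 against 9.07 CPM) and the actin-bundling gene Fscn1 (112 against 65.9 CPM), and Pgf again lower (13.6 against 24.6 CPM). Each pair thus had 3 of 23 higher and 1 lower, beside 2.41% and 6.53% of all genes in the first pair and 3.97% and 6.95% in the second. The list medians were 0.05 and 0.03 in log2, beside -0.05 and -0.04 over all genes. Within capillary-like cells 0 of 23 were called higher and 1 lower in the first pair, beside 2.19% and 3.65% of all genes. In the second pair 1 was higher and 2 lower, beside 3.32% and 4.23%. Arterial-like cells had 2 higher and 3 lower of 21 in the first pair (2.65% and 3.85%) and 1 higher and 2 lower of 19 in the second (3.41% and 3.94%). The Lrg1 Col13a1 type had 1 higher of 16 (3.12%) and then 1 lower of 18 (3.15%). Endocardial-like cells had 1 higher and 1 lower of 11 in the first pair (3.68% and 5.1%). Over all endothelial-like cells none of 23 was called between the Lin28+/cKit+ and Lin28+/cKit- sorts, beside 3.4% of all genes in each direction. Within capillary-like cells of that pair 2 of 23 were higher (2.44% of all genes). In arterial-like cells 1 of 19 was lower (3.03%), and in the Lrg1 Col13a1 type 1 of 14 (3.66%). Among 22 targets of the hypoxia-inducible factors, 0 of 21, 0 of 21 and 0 of 20 measured genes were called in the 3 comparisons. Of all genes 8.94%, 10.9% and 6.8% were called there in either direction. The list is too short to read 0 calls against those shares. Within subtypes a few of these targets were called. In the first pair these were 2 of 19 in endocardial-like cells, both lower (8.78% of all genes called). In the second they were 1 of 20 in capillary-like cells (7.55%) and 2 of 18 in arterial-like cells (7.35%), all higher. The Lrg1 Col13a1 type there had 1 higher and 1 lower of 17 (7.08%). Between the Lin28+ sorts 1 of 15 was lower in arterial-like cells (5.78%) and 1 of 16 in the Lrg1 Col13a1 type (6.4%). Of the venous and fenestrated endothelium list, Vwf, the von Willebrand factor gene, and Selp, the P-selectin gene, were lower in both Lin28+ sorts than in the Lin28-/cKit- sort, Vwf at 154 and 172 against 390 CPM and Selp at 7.47 and 16.2 against 27.2 CPM. That list had 13 measured genes, with 0 higher and 3 lower in the Lin28+/cKit+ sort and 1 higher and 3 lower in the Lin28+/cKit- sort, against the same shares of all genes. Within capillary-like cells 0 of its 11 measured genes were called in the first pair (5.84% of all genes). In the second 1 was higher and 1 lower (3.32% and 4.23%). In the first pair arterial-like cells had 1 higher of 9 (2.65%) and the Lrg1 Col13a1 type 2 lower of 13 (3.32%). Endocardial-like cells there had 2 higher and 2 lower of 13 (3.68% and 5.1%). In the second pair arterial-like cells had 1 higher and 1 lower of 9 (3.41% and 3.94%). Among junction genes, Cldn5 was higher in the Lin28+/cKit+ than in the Lin28-/cKit- sort, at 1035 against 586 CPM, and the other 13 measured were not called. Within capillary-like, arterial-like and Lrg1 Col13a1-type cells 0 of 13 junction genes were called in that pair, beside 5.84%, 6.5% and 6.44% of all genes. Endocardial-like cells had 1 higher and 1 lower of 13, beside 3.68% and 5.1% of all genes. Dll4, Vwf, Selp and Cldn5 were also among the markers that named the cells, as were other genes of these lists. Only the 7 genes and Kit were left out of the clustering.

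Capillary-like cells that carried Apln differed from their neighbours in many of the tip cell genes. This split was chosen after seeing the data, and set 31 Lin28+/cKit+, 21 Lin28+/cKit- and 37 Lin28-/cKit- cells with an Apln UMI against 223, 132 and 365 without. The cells with a UMI were deeper, with median depths of 7250, 9731 and 5261 UMIs against 4974, 7420.5 and 3741, and the part of depth beyond the check given here was not tested. Of 23 measured tip cell and sprouting genes, 10 were called higher and 2 lower in the Lin28+/cKit+ sort, 8 higher and 0 lower in the Lin28+/cKit- sort and 12 higher and 1 lower in the Lin28-/cKit- sort. Over all genes 3.5%, 3.79% and 4.2% were called higher and 5.01%, 4.49% and 4.26% lower. The median log2 ratios of the list were 0.53, 0.54 and 0.73, beside -0.08, -0.04 and -0.00 over all genes. In cells of at least 5000 UMIs the counts called higher were 11, 8 and 7. The share of all genes called in those deeper cells was not computed, so these counts have no background beside them.

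The same 6 genes of the list were called higher in all 3 libraries, where 0.523% of 6114 genes measured in each were. Pgf was at 104 against 2.35 CPM in the Lin28+/cKit+ sort, 112 against 1.92 CPM in the Lin28+/cKit- sort and 198 against 15.6 CPM in the Lin28-/cKit- sort, in cells with against cells without an Apln UMI. The transcript was in 5 of 31, 4 of 21 and 10 of 37 of the cells with Apln and in 2 of 223, 2 of 132 and 16 of 365 of the others. The imprinted gene Mest was 5.56-fold (3.40–9.14), 3.02-fold (1.78–5.04) and 3.75-fold (2.40–5.76) as high. The adhesion molecule gene Mcam was 3.21-fold (1.80–5.63), 3.01-fold (1.66–5.34) and 2.39-fold (1.34–4.07) as high, and the carboxypeptidase inhibitor gene Lxn 2.83-fold, 2.97-fold and 3.14-fold. Fscn1 was 2.20-fold, 2.93-fold and 2.66-fold as high. Trp53i11 was the least different of the 6, at 1.77-fold, 1.57-fold and 1.74-fold. Not all tip cell genes followed. Kdr, the main receptor for VEGF-A, was at 0.701-fold (0.601–0.814), 0.881-fold (0.760–1.02) and 0.772-fold (0.663–0.894), and Igfbp3 was called lower in the Lin28+/cKit+ and Lin28-/cKit- sorts, at 0.305-fold (0.129–0.619) and 0.167-fold (0.0449–0.434).

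**Figure D4:**
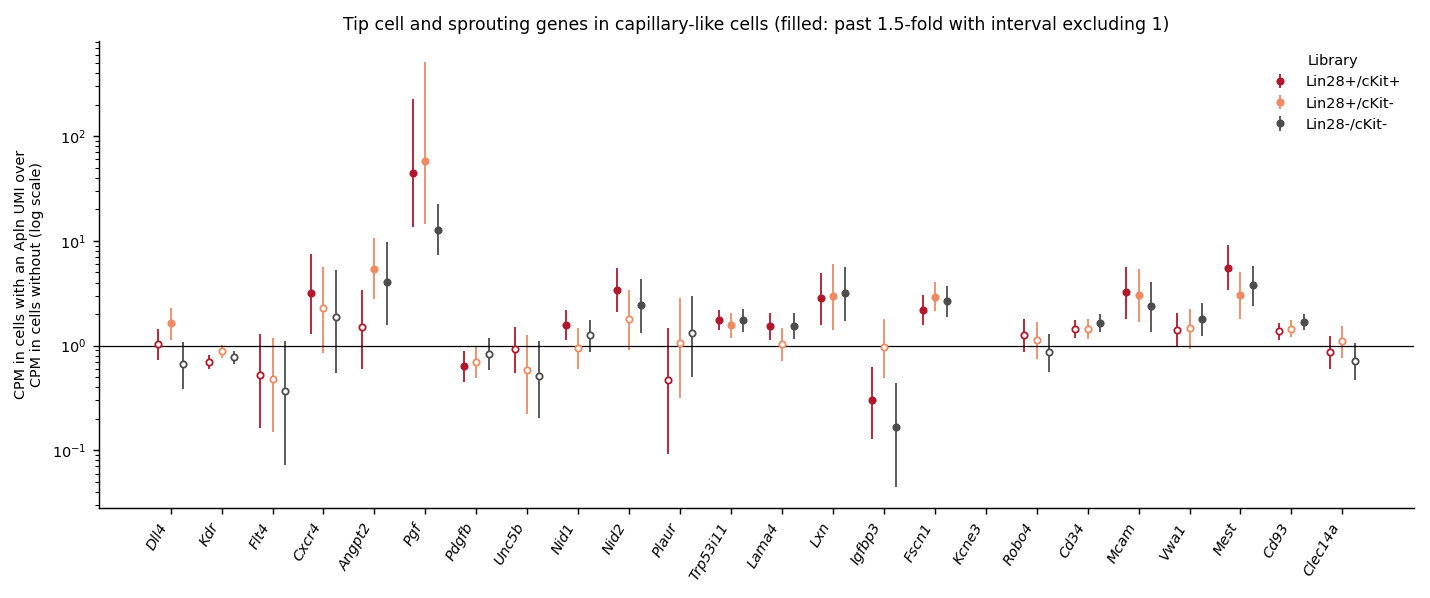
CPM in capillary-like cells with an Apln UMI over CPM in those without (log axis) for the measured tip cell and sprouting genes in the 3 libraries, with exact 95% counting intervals and filled points past 1.5-fold with an interval that excludes 1. Genes with 0 UMIs on either side in a library have no point there. Pgf reaches 44.3, 58.5 and 12.7, Mest, Mcam, Lxn, Fscn1 and Trp53i11 are filled in every library, and Kdr lies below 1 in all 3.

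The hypoxia target list had fewer calls in the cells with Apln. It had 1 higher and 2 lower, 2 higher and 1 lower, and 0 higher and 2 lower of 18, 17 and 18 measured genes. Of all genes 3.5%, 3.79% and 4.2% were called higher and 5.01%, 4.49% and 4.26% lower. The median log2 ratios of the hypoxia targets were 0.08, -0.05 and -0.07, beside -0.08, -0.04 and -0.00 over all genes. Adm, itself a target of that kind, was at 217 against 44.7 CPM in the Lin28+/cKit+ sort, 65.5 against 33.6 CPM in the Lin28+/cKit- sort and 213 against 42.4 CPM in the Lin28-/cKit- sort. The ratios were 4.84 (3.28–7.15), 1.95 (0.969–3.72) and 5.01 (3.30–7.56), so the Lin28+/cKit- value was not called. An Adm UMI was found in 19 of 31, 9 of 21 and 16 of 37 capillary-like cells with an Apln UMI. Those are 61.3%, 42.9% and 43.2%, against 15.2%, 15.9% and 10.7% of the cells without. The cells with both ligands thus numbered 19, 9 and 16, where the product of the separate shares gives 6.47, 4.12 and 5.06 cells. After thinning to 1000 UMIs they numbered 3, 0 and 2, against products of 0.281, 0.0592 and 0.495, too few to order the libraries. Esm1 was 6.65-fold (2.69–16.9) as high in Lin28+/cKit+ cells with an Apln UMI, and 1.87-fold (0.622–4.72), not called, in Lin28-/cKit- cells. None of the receptor genes was called in these cells, with ratios of 1.24, 0.98 and 1.00 for Aplnr, 0.69, 0.71 and 0.66 for Calcrl and 0.69, 0.92 and 0.77 for Ramp2. Apln and its own receptor Aplnr were detected together in 21, 14 and 20 capillary-like cells, where the product of the shares gives 15.1, 12.8 and 15.7.

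Genes with the most similar pattern were sought over 18 units, each a cell class in 1 library with at least 30 cells, by Pearson r on log2(CPM + 10) over 11158 genes. The units share libraries and cell classes, so r is a description. Rad51ap1 (0.89), Cxcl9 (0.88) and Cdh23 (0.88) were most like Apln, and Pald1 (0.90), Proser1 (0.90) and Rad51ap1 (0.89) most like Aplnr. The ligand and its receptor reached 0.78 with each other. Adm came closest to Kctd15 and Pcdhb19 (0.80 each) and Gmppb (0.79). Ramp2 was most like Nxn (0.98), S100a16 (0.97) and Tpm4 (0.96), and Calcrl most like Tmtc1 (0.94), Csgalnact1 (0.92) and Palm (0.91). The values for Esm1 were lower, with Fancb at 0.82 and Fbxo7 and Ssu2 at 0.79. Plvap was most like Wnt2 (0.98), Pkhd1l1 (0.97) and Tmem108 (0.96), the last of which is among the endocardial markers used to name the cells.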

How the data were processed

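Per the submitters' processing notes, reads were processed with Cell Ranger, without a version, on the mouse build mm10, and with Seurat 4.0.2. Libraries used the 10x Chromium 3′ kit, per the labels' protocols. The sources used here do not give how cells were filtered. The deposited values are natural log values of 1 plus a gene's UMIs scaled to 10000 UMIs a cell. After the log was undone, 100% of values were whole UMIs within 0.01, so counts were recovered and used. The plan had assumed counts. Cells had at least 500 UMIs.

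Cells of the 3 libraries were clustered together with scanpy 1.11.5 (leidenalg 0.10.2, 2000 variable genes, 30 components, 15 neighbours, resolution 1) without the 7 genes and Kit, and clusters were named from marker lists. Thresholds of naming were set after seeing the clusters. The unnamed clusters held 44, 17 and 149 cells of the Lin28+/cKit+, Lin28+/cKit- and Lin28-/cKit- sorts. Scrublet marked 26 of 5833 cells (0.446%), was not counted as having worked, and no cell was removed as a doublet. UMIs were summed per class and library. Intervals came from scipy 1.17.1. A gene needed 20 UMIs in a pair to be measured, and a subtype 30 cells in each library to be compared between libraries. The ratio calls were tested on simulated counts without variation between cells, and the other steps were not. The genes, lists and rules were chosen with earlier results of these data known. Results of 2 genes of the pathway list are not reported here. Genes named beyond the 7 come from the fixed lists or are the 3 with the highest r to each gene, passing over mitochondrial, ribosomal protein, haemoglobin and predicted genes. Alternatives changed the scaling, the sum over cells, depth, filters, doublets, clustering, subtype weights and free RNA, and left out the top cells.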

Additional observations from a re-analysis of the deposited data

How the results depend on the processing

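The median log2 ratio of the 7 genes in endothelial-like cells stayed within the spread that counts as unmoved in 47 of 51 alternatives. For Lin28+/cKit+ against Lin28-/cKit- it was -0.03 and became 0.19 as a mean of log2(CPM + 1) and -0.28 with equal subtype weights. For Lin28+/cKit- against Lin28-/cKit- it was -0.27 and became 0.32 as a mean of log2(CPM + 1) and -0.47 after thinning to 1000 UMIs. The number of genes whose highest subtype was the same in all 3 libraries was 3, 5 at a clustering resolution of 0.5 and 2 to 4 otherwise. It was 2 with each library clustered alone, where Plvap was highest in the Lrg1 Col13a1 type in the Lin28+/cKit- sort. The tip cell genes called higher in Lin28-/cKit- capillary-like cells with an Apln UMI numbered 12, and 7 in cells of at least 5000 UMIs. Of 354 alternatives for single genes, 3 reversed a called direction, Adm in Lin28+/cKit+ against Lin28-/cKit- thinned (-0.070), and Apln (-0.25) and Plvap (0.37) in Lin28+/cKit- against Lin28-/cKit- with equal subtype weights. The cause was not tested. The settings for cells with an Apln UMI and for macrophage-like cells, and leaving out the top cell, were chosen after seeing the data. For the calls, 112 of 133 alternatives kept both direction and 1.5-fold. Depth limits the rarer genes, with 59 to 81 endothelial UMIs a library for Apln and 10 to 103 for Esm1. No paired analysis was possible because each group has 1 library and no result comes from a test.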
